A study of Homo sapiens with 4 samples.

Results

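Sense overlapping circRNAs are back-spliced junctions that overlap a gene on its own strand and, by the usual definition, are neither exonic nor intronic circles. Members were taken as every row of the deposited table with the category sense overlapping, a position outside chromosome M, and at least 1 junction read in the 4 libraries used. They numbered 795 of the 9405 circRNAs with a read (8.45%), and 144 of them carried a circBase identifier while 651 did not. circBase is a catalogue of circRNAs seen in earlier sequencing studies, so both sets were described apart.

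Exosomal RNA was sequenced after rRNA depletion in 2 libraries of irradiated pancreatic cancer cells (B1 and B2, X-rays at 10 Gy) and in 2 libraries of control cells that were not irradiated (A1 and A2). All cells were grown to passages 14 to 16 and moved to medium with 2% exosome-depleted serum. Every library carries the same 4 names of established pancreatic carcinoma lines (BxPC-3, MIA PaCa-2, PANC-1, SW1990), so the line or mix behind it cannot be told. Nothing states that the 2 libraries of a group came from separate cultures, and p-values measure the spread between these libraries only.

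A circRNA forms when a splice donor at the 3′ end of a stretch of pre-mRNA is joined backwards to a splice acceptor at its 5′ end. The acceptor follows AG and a run of pyrimidines (C and T), and the donor is followed by GT, most often as GTAAG or GTGAG. Circles lack free ends, which protects them from exonucleases, and they are carried in exosomes, the small vesicles that cells release.

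The junction itself was the measured object, so the genomic sequence around both ends was read first. All sequences are from GRCh37, the build of the deposited positions, on the listed strand. For members of circBase, 20 bases before and 20 bases after each end are shown with the AG before the 5′ end and the GT after the 3′ end in capitals. The circle of ZNF609 is the plainest case, since both ends are those of exon 2, while the 3 circles of ZNF124 share 1 acceptor and differ in the donor.
ZNF609 hsa_circ_0000615, chr15:64791492-64792365, plus strand, 5′ end: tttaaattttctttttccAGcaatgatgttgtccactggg
ZNF609 hsa_circ_0000615, 3′ end: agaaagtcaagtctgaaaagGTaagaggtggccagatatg
ZNF124, 5′ end shared by 3 circles at chr1:247323115, minus strand: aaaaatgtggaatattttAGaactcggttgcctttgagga
ZNF124 hsa_circ_0112879, chr1:247319708-247323115, 3′ end: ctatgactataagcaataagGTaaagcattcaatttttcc
ZNF124 hsa_circ_0002922, chr1:247318868-247323115, 3′ end: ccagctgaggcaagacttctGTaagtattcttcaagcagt
ZNF124 hsa_circ_0002802, chr1:247302018-247323115, 3′ end: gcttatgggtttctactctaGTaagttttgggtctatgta
LYPLAL1, first 5′ end at chr1:219366424, plus strand: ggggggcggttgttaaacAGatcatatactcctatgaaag
LYPLAL1, second 5′ end at chr1:219366472: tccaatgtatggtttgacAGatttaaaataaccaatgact
LYPLAL1, first 3′ end at chr1:219392054: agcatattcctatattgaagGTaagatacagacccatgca
LYPLAL1, second 3′ end at chr1:219414650: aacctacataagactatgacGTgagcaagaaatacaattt

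Some members outside circBase looked different at the base level, and 3 of them are shown. The run of bases that is identical around both ends is in capitals. All 3 have AG and GT on the opposite strand, which held for 258 of the 651 members outside circBase. Runs of 10 or more identical bases occurred in 100 of the 651, so the 3 do not stand for the whole set. In the HLA-C junction the windows around both ends are copies of each other, so the exact point of the joint cannot be placed within the run. The NES junction, which had the most reads of any member in a control library (10 in A2), had 2 such bases.
HLA-C, chr6:31239010-31324103, minus strand, 5′ end: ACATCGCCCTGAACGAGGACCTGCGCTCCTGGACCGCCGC
HLA-C, 3′ end: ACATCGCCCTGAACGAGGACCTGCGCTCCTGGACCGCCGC
RP11-49L2.1, chr10:19580335-19580738, minus strand, 5′ end: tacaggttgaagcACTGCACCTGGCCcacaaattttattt
RP11-49L2.1, 3′ end: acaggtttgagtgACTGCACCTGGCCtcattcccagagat
NES, chr1:156641522-156641776, minus strand, 5′ end: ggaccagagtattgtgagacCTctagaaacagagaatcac
NES, 3′ end: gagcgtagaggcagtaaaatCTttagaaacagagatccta

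The libraries held 15150 (B1) and 5756 (B2) junction reads in irradiated samples, and 6544 (A1) and 8094 (A2) in control samples. They stood apart in kind as well as depth: exonic circles of circBase took 9095 (B1) and 1820 (B2) reads, against 3 (A1) and 4 (A2). Column names with no matching sample were left out, so control means A1 and A2 alone. Column B2 was taken by its name, but it held 1861 circRNAs with a read, which is not the number listed for that library in a supplement, whereas the other 3 columns differed from theirs by at most 1. The second irradiated library may therefore be another one than labelled, and every B2 value below carries this doubt. Among host genes, 1 of 12 markers of pancreatic epithelium and ductal carcinoma had a circRNA with a read (EPCAM, 2 reads in B1 and 0 elsewhere), with the other 11 at 0. For leukocytes it was 2 of 12 (HLA-DRB1 and PTPRC), for red cells and plasma 2 of 12 (C3 and FGG) and for stroma 2 of 8 (COL3A1 and VIM). Summed over classes, leukocyte markers had 26 and 0 reads in irradiated libraries and 0 and 2 in control libraries, red cell and plasma markers 15 and 7 against 0 and 0, and stroma markers 0 and 10 against 0 and 0. Junction reads cover only circles, so these counts are a weak check of the labelled cells. The part of other cells in the differences between groups was not tested.

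Sense overlapping circles of circBase were seen in irradiated libraries and in neither control library. B1 had 634 reads of 127 of them and B2 had 88 reads of 31, while A1 and A2 had 0. In A1 and A2 the circBase circles of other nuclear classes were nearly absent too. Exonic ones had 3 and 4 reads there, and intronic, antisense and intergenic ones had 0 and 0. The absence is thus not particular to members. As a share of junction reads the members took 4.18% in B1 (Wilson 95% interval 3.88 to 4.52%) and 1.53% in B2 (1.24 to 1.88%). A count of 0 allowed up to 0.0458% in A1 and 0.0371% in A2 (3 counts of the total). The mean was 2.86 ± 1.88% in irradiated and 0 ± 0% in control libraries (SD, n = 2 each). With 2 libraries against 2, the exact permutation test (two-sided) gave p = 0.33, the smallest it allows. PCR reads carried no molecular identifiers, so intervals and floors cover counting error only.

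Members not in circBase took similar shares of both groups. They had 856 reads of 218 circRNAs in B1 (5.65%, interval 5.29 to 6.03%) and 486 of 131 in B2 (8.44%, 7.75 to 9.19%), against 381 of 129 in A1 (5.82%, 5.28 to 6.42%) and 563 of 185 in A2 (6.96%, 6.42 to 7.53%). The means were 7.05 ± 1.98% in irradiated and 6.39 ± 0.802% in control libraries (SD, n = 2 each; exact permutation p = 1.0), and the groups overlapped. The difference of 0.658 percentage points was smaller than the spread of the irradiated libraries, and its sign turned to -0.668 with HLA and RPL3P2 hosts left out, to -0.732 with chromosome M out of the total, and to -0.225 when circRNAs were counted in place of reads. When only reads of circRNAs outside circBase were taken as the total, the same members held 16.4% (B1) and 12.7% (B2), against 5.82% (A1) and 6.96% (A2).

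**Figure D1:**
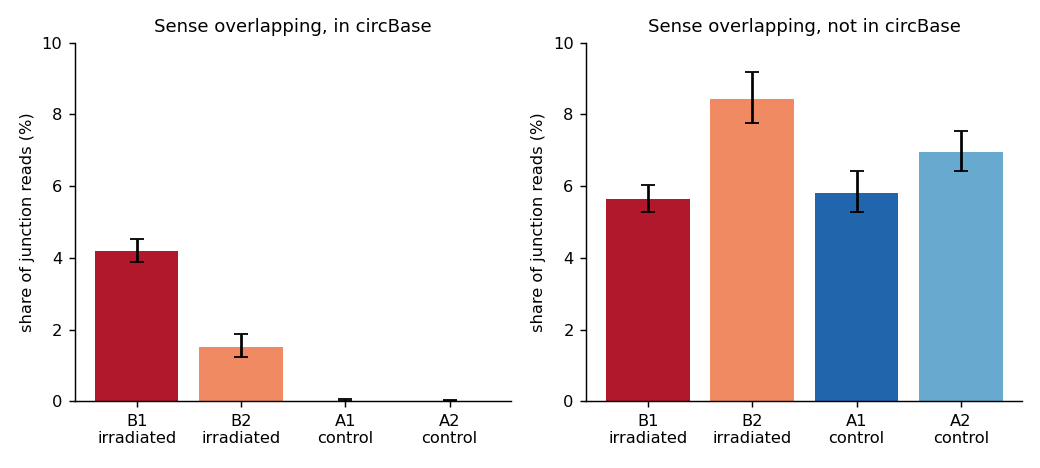
Share of all junction reads (%, bars) taken by sense overlapping circRNAs in circBase (left) and not in circBase (right) in irradiated libraries B1 and B2 and control libraries A1 and A2, with Wilson 95% intervals as error bars. Circles of circBase reach 4.18% and 1.53% in B1 and B2 and 0 in A1 and A2, while the other members lie between 5.65% and 8.44% in all 4 libraries.

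Few members were found more than once. Of the 144 in circBase, 130 (90.3%) were seen in 1 library and 14 in both irradiated libraries. Of the 651 not in circBase, 640 (98.3%) were seen in 1 library, 6 in both irradiated libraries, 1 in both control libraries and 5 in both groups. Reads per member were low, with a median total of 4 in circBase and 3 outside it, and 39.7% of all 795 rested on 1 or 2 reads. Among circRNAs with 5 or more reads, 157 of 172 members were seen in 1 library alone. Over all classes it was 1627 of 1957 (83.1%), so such sparse detection is common to the whole series.

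The 2 sets differed in size on the genome and in the genes they came from. The median span was 10072 bases in circBase and 1281 bases outside it, and 5.56% against 28.4% spanned less than 500 bases. The length listed in the table equalled the genomic span in all 795, introns included, so it is no spliced length. Of the hosts matched to the annotation, 120 of 122 (98.4%) were protein coding in circBase and 416 of 479 (86.8%) outside it. No host dominated: the 144 circles came from 133 hosts and the 651 from 603. LYPLAL1, a lysophospholipase-like hydrolase, led the circBase set with 4 circles, followed by ZNF124 with 3 and CDKAL1, CHD9, DDHD2 and MED13L among those with 2. Outside circBase, XLOC_005754 held 9 members, HLA-C 6, MUC17 and RPL3P2 4 each, and HRNR and NXF2 3 each. MUC17 encodes a membrane mucin and HRNR the epidermal protein hornerin, both with long tandem repeats in the coding sequence.

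In circBase members one end was usually a known exon end and the other was not. Both ends lay on annotated exon ends of the listed strand in 23 of 144 (16.0%), the 5′ (acceptor) end alone in 74, the 3′ (donor) end alone in 34, and neither in 13. The 2 ends belonged to 1 annotated transcript in 4. Over all 795 members both ends were annotated in 5.53%. Exonic circles had both ends annotated in 99.7% (in circBase) and 99.1% (outside it), but the authors assigned classes from gene positions, so exon ends and class are not independent. Outside circBase, 21 of 651 sense overlapping members (3.23%) had both ends annotated, 61 the 5′ end alone, 55 the 3′ end alone and 514 (79.0%) neither. Intronic, antisense and intergenic circRNAs outside circBase had neither end annotated in 98.3%, 99.9% and 99.8%. Intronic circles of circBase resembled the circBase members, with 1 end annotated in 28 of 37 (75.7%) and both in 10.8%. A single annotated end is thus not particular to sense overlapping circles.

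**Figure D2:**
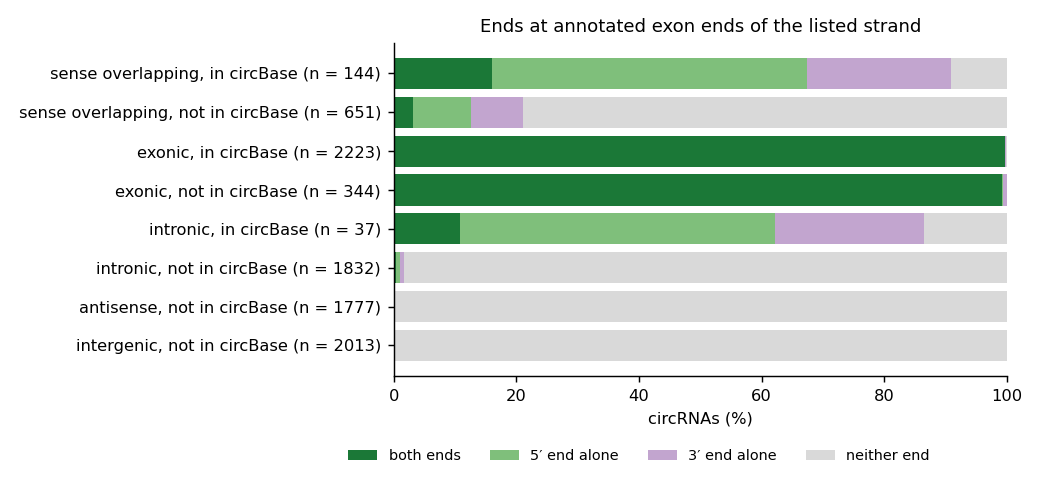
Percent of circRNAs (x axis) of each class with both ends, the 5′ end alone, the 3′ end alone or neither end at an annotated exon end of the listed strand; sets under 30 circRNAs are left out. In sense overlapping circRNAs of circBase 108 of 144 had 1 end annotated, against 116 of 651 outside circBase. Among intronic circles of circBase it was 28 of 37.

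The unannotated donor ends of circBase members lay mostly inside exons. Of 87 such 3′ ends, 35 were in a UTR, 16 in a coding exon, 9 in a noncoding exon and 18 in an intron, and their median distance to the nearest exon end was 298 bases. The 47 unannotated acceptor ends lay in an intron in 27 cases, with a median distance of 2235 bases. The bases around these ends were compared with those of annotated ends. GTAAG or GTGAG followed 29 of the 87 unannotated donors (33.3%), against 28 of 57 annotated donors (49.1%). The median pyrimidine content from 20 to 3 bases before the 5′ end was 72.2% at unannotated and 77.8% at annotated acceptors. Outside circBase the donor and acceptor were read on the strand that carried AG and GT, the opposite one in 258 of 651. In those 258 the donor lies at the listed 5′ end and the acceptor at the listed 3′ end. Annotation still refers to the listed strand, so the 2 readings do not match there. Members with an unannotated listed 3′ end had GTAAG or GTGAG in 61 of 575 (10.6%). Those with an unannotated listed 5′ end had a median of 50.0% pyrimidines. The 76 with an annotated 3′ end and 82 with an annotated 5′ end had 42.1% and 77.8%. For comparison, the same reading gave GTAAG or GTGAG in 53.5% of exonic circles of circBase and 5.73% of intronic and 4.82% of intergenic circRNAs outside it. A match of letters is a description and not proof of a splice site.

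Circles with a shared end showed this arrangement most clearly. In circBase 44 of 144 members (30.6%) shared an end with another circRNA of the table, and 23 shared it with an exonic circle. Outside circBase 31 of 651 (4.76%) shared one. Exonic circles of circBase shared an end in 620 of 2223 (27.9%) and intronic circles of circBase in 7 of 37 (18.9%). ZNF124, a KRAB zinc finger gene, joined 1 annotated acceptor to 3 donors: hsa_circ_0112879 had 14 and 4 reads in B1 and B2, hsa_circ_0002922 had 16 and 0, and hsa_circ_0002802 had 5 and 0, with 0 in A1 and A2 for all 3. Its nearer donors lay 505 and 335 bases from an exon end, and the farthest was an annotated exon end. LYPLAL1 showed every combination of 2 annotated acceptors, 48 bases apart, with 2 donors. The 4 circles had 7, 5, 4 and 3 reads in B1 and 0 in B2, A1 and A2, and both donors lay outside annotated genes, 5847 and 28443 bases from the nearest exon end, yet were followed by GTAAG and GTGAG. The sequences printed above are those of these joints. FNDC3B, a known host of widely found circles, had 1 such member, hsa_circ_0122728, with 6 reads in B1 and 0 elsewhere, which shared its acceptor with 3 exonic circles.

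**Figure D3:**
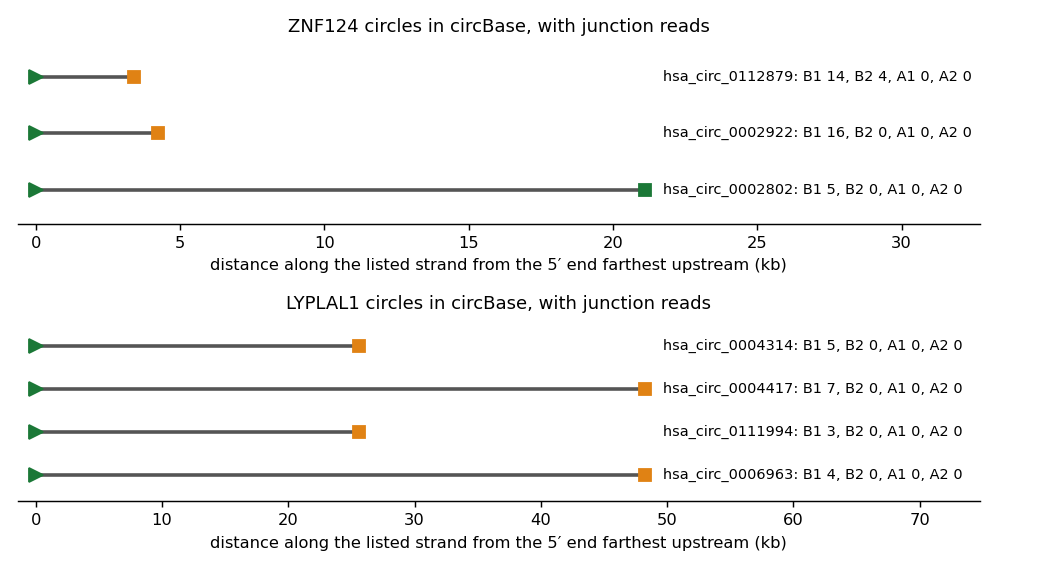
Circles of ZNF124 (top) and LYPLAL1 (bottom) in circBase drawn to scale as lines from the 5′ end (triangle) to the 3′ end (square), as distance in kb along the listed strand; green ends are annotated exon ends and orange ends are not, and the junction reads of each library stand at the right. The 3 ZNF124 circles start at 1 point, and the 4 LYPLAL1 circles combine 2 starts 48 bases apart with 2 ends.

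Repeated sequence at the ends was found outside circBase alone. A run of 10 or more identical bases around both ends occurred in 0 of 144 circBase members (interval 0 to 2.6%) and in 100 of 651 others (15.4%, 12.8 to 18.3%), of which 49 had 20 or more. Over all 795 members the share was 12.6%. The share outside circBase lay near that of antisense (14.9%), intronic (19.2%) and intergenic (19.4%) circRNAs outside circBase, whereas 1 of 2223 exonic circles of circBase had such a run. The longest run, 127 bases, was in XLOC_005754, and HLA-DRB1, HLA-C and LINC00622 had runs of 98, 66 and 54. Junctions with runs of 40 or more held 39 (B1) and 110 (B2) reads, against 12 (A1) and 22 (A2). Most of the irradiated reads came from single HLA positions. HLA-C and RPL3P2 at shared positions held 85 and 14 of the B2 reads, and HLA-DRB1 held 26 of the B1 reads. How the aligner placed reads in such copies was not tested.

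All 795 members had the AG and GT letters on 1 strand or the other. Antisense and intergenic circRNAs outside circBase lacked them on either strand in 2 of 1777 and 3 of 2013. Their presence alone therefore does not set members apart and is no evidence of splicing. The letters stood on the listed strand in all 144 circBase members. Outside circBase they stood on the listed strand in 393 and on the opposite strand in 258. Among the 258, 27 had both ends at exon ends of a gene on the opposite strand. The same 2 ends were listed on both strands for 10 circBase and 59 other members. Among circBase members, MED13L hsa_circ_0000443 had 42 reads in B1 and 2 on the opposite strand, and ZNF609 hsa_circ_0000615 had 17 in B1 and 1. The letters stood on the listed strand in all 10 of these circBase members. Of the 59 others they stood on the listed strand in 23 and on the opposite strand in 36. For all 258 members with the letters on the opposite strand, the strand, and so the host, is uncertain. The library kit kept strand, as stated in the methods, but the strand setting of the circRNA detection was not given in the sources used here.

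Although members outside circBase took similar shares of reads in both groups, they were made of different kinds of junction. An annotated exon end was present in 43.6% (95 of 218) of those seen in B1 and 27.5% (36 of 131) in B2, against 0% (0 of 129) in A1 and 4.86% (9 of 185) in A2. The irradiated mean was 35.5 ± 11.4% and the control mean 2.43 ± 3.44% (SD, n = 2 each). The donor and acceptor were again read on the strand that carried AG and GT, whether listed or opposite. GTAAG or GTGAG followed the donor in 22.9% (B1) and 21.4% (B2), against 4.65% (A1) and 5.95% (A2). Median pyrimidine content before the acceptor was 66.7% and 61.1%, against 44.4% and 44.4%. Runs of 10 or more identical bases ran the other way, with 11% and 12.2% in B1 and B2 and 19.4% and 22.2% in A1 and A2. The median span was 3936 and 1641 bases in irradiated libraries and 711 and 934 bases in control libraries. Motifs on the opposite strand made up 28.9% and 42.0%, against 48.8% and 44.3%. In all 6 features both irradiated libraries lay on 1 side of both control libraries, and each exact permutation test (two-sided) gave p = 0.33, the smallest possible with n = 2 per group, and 0.33 after Benjamini-Hochberg adjustment over the 6. The difference in exon ends stayed between 25 and 41.1 percentage points when any 1 library was left out.

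**Figure D4:**
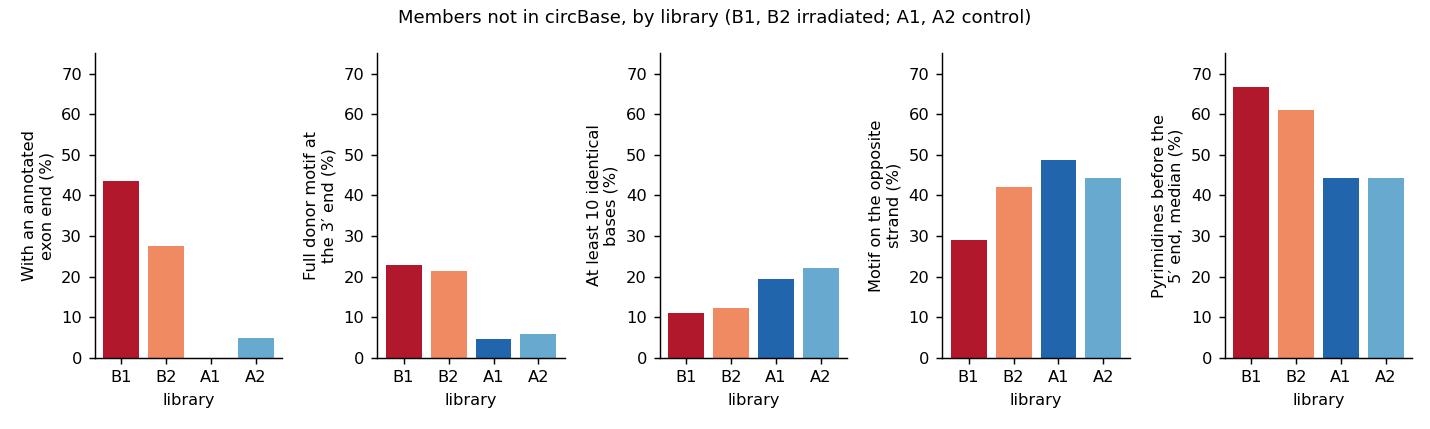
Features of sense overlapping circRNAs not in circBase, for members with a read in each library (B1, B2 irradiated, left, and A1, A2 control, right). Bars are percent of members, or the median percent for pyrimidines from 20 to 3 bases before the acceptor. Donor motif and pyrimidines were read on the strand with AG and GT, so 5′ and 3′ end on those axes refer to that strand. Exon ends, the full donor motif (GTAAG or GTGAG) and pyrimidines are higher in irradiated than in control libraries, and runs of at least 10 identical bases are lower.

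Single members were compared with edgeR's quasi-likelihood F test, fitted on the 1957 circRNAs of all classes whose summed count was 5 or more. Of the 795 members, 172 reached this minimum, 56 in circBase and 116 outside it. Reads in 1 library alone were found in 157 of the 172, against 1627 of all 1957 tested (83.1%). A member that passed through 1 library of 1 group had to differ, so the number tested is no support in itself. With the thresholds of the study's methods (more than 2-fold, p below 0.05 before adjustment), 9 members were higher in irradiated libraries (5 of 56 in circBase, 4 of 116 outside it) and 0 were lower. The background over all circRNAs tested was 3.53% higher (69 of 1957) and 0.204% lower (4 of 1957), so the share of members called, 5.23%, was near it. At an adjusted p under 0.05, 1 member was called, with a background of 0.102% (2 of 1957). Of the 40 members fitted lower, 0 had an unadjusted p under 0.05, and DESeq2 called 0 lower and 0 higher. The count of 9 depended on single libraries: it was 2 without A1, 1 without A2, 13 without B1 and 33 when B2 was left out, and the 1 with an adjusted p under 0.05 became 0, 0, 13 and 18. Reads in both irradiated libraries exceeded both control libraries in 12 of 172 members (6.98%), against 11.9% of all tested.

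The fitted differences depended on scaling and on single libraries. The median log2 fold change (irradiated over control) was 5.0 in members and 5.0 over all circRNAs tested with TMM scaling, 5.81 and 5.81 with RLE factors, 3.69 and 3.69 with no factors, and 4.47 and 4.35 with mapped reads as library sizes. Without B1 the sign turned, with medians of -4.11 in members and -4.06 over all tested. With a group at 0 set to a floor of 3 counts per group, the median of the log2 ratio per junction read was 0.35 in members and 0.22 over all tested. The medians describe rows that passed the minimum mostly through 1 library, so their likeness is no result. In circBase 56 of 56 tested members were fitted higher (median 0.49 with the floor), and outside it 76 were fitted higher and 40 lower (0.22 with the floor). Fold bounds below are per junction read of a group against the same floor.

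Of the 5 circBase members called higher, 3 had reads in both irradiated libraries. MED13L hsa_circ_0000443, from a subunit of the Mediator kinase module, had 42 and 0 reads in B1 and B2 and 0 in A1 and A2 (at least 9.80-fold higher, unadjusted p = 0.00252, adjusted p = 0.448). It rested on B1 alone. ZNF609 hsa_circ_0000615, exon 2 of a zinc finger gene (874 bases) and a circle found in many tissues, had 17 and 2 reads against 0 and 0 (at least 4.43-fold, adjusted p = 0.549). ZNF124 hsa_circ_0112879 had 14 and 4 against 0 and 0 (at least 4.20-fold). EGLN3 hsa_circ_0101692, from a prolyl hydroxylase that acts on hypoxia-inducible factor, had 22 and 0 against 0 and 0 (at least 5.13-fold), and hsa_circ_0007379, listed under the transcript G024201, had 25 and 1 against 0 and 0 (at least 6.07-fold). The adjusted p was 0.549 for ZNF124, EGLN3 and G024201 as well, so none of the 5 passed the adjusted threshold. All 5 had 0 reads in A1 and A2, and irradiated and control libraries overlapped at 0 for MED13L and EGLN3.

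The other circBase members with many reads followed the same pattern without passing the test. STAMBPL1 hsa_circ_0008629 (a deubiquitinase gene) and ZNF124 hsa_circ_0002922 had 16 reads each in B1. FKBP3 hsa_circ_0101874 (a prolyl isomerase that binds rapamycin) and MORC3 hsa_circ_0001189 (a nuclear ATPase) had 14 each, and GABPB2 hsa_circ_0110791 (a subunit of the GA-binding protein) and EPB41L5 hsa_circ_0008278 (a FERM domain protein) had 11 each. All 6 were at 0 in the other libraries. RAD54L2 hsa_circ_0001306, from a SNF2-type helicase gene, was the exception, with 4 reads in B1 and 6 in B2 against 0 and 0 (adjusted p = 0.549).

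**Figure D5:**
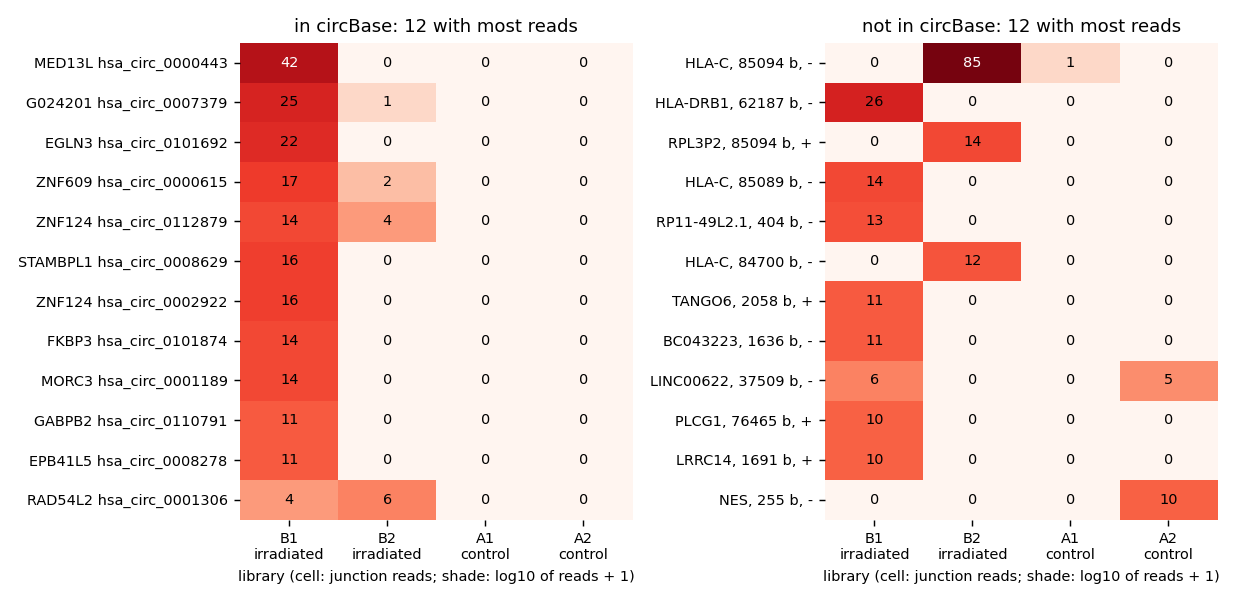
Junction reads (number in each cell, shade on a log10 scale) of the 12 members with most reads in circBase (left) and not in circBase (right, with span in bases, b, and strand) in libraries B1, B2 (irradiated), A1 and A2 (control). Most rows have reads in 1 library, and the left block has none in A1 or A2.

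All 4 members called higher outside circBase lay in HLA genes or at the same positions on the other strand. HLA genes encode the proteins that present peptides to T cells and are near copies of each other. The junction chr6:31239010-31324103 on the minus strand, listed under HLA-C, had 85 reads in B2 and 0 in B1, against 1 in A1 and 0 in A2, a ratio per junction read of 59.5 (exact 95% interval 10.4 to 2380; log2 fold change 7.91 ± 1.56 SE, adjusted p = 0.000389). Its adjusted p was under 0.05 in 2 of 9 other settings and ranged up to 0.695. The call was lost with a minimum of 10 reads (edgeR, unadjusted p = 0.0502) and with DESeq2 (unadjusted p = 0.091). It was also lost with libraries blocked by replicate number (edgeR, unadjusted p = 0.665). The same 2 positions on the plus strand, listed under the ribosomal protein pseudogene RPL3P2, had 14 reads in B2 and 0 elsewhere. The AG and GT letters stood on this plus strand, so the strand and host of the junction with 85 reads are uncertain. A junction of chr6:31237743-31322442 had 12 in B2 and 0 elsewhere, and chr6:32487205-32549391 under HLA-DRB1 had 26 in B1 and 0 elsewhere (adjusted p = 0.549 for these 3). Each of the 4 rested almost wholly on 1 irradiated library, B2 for 3 and B1 for HLA-DRB1, and B1 was not above the control libraries for these 3. HLA-DRB1 is also 1 of the leukocyte markers, and its 26 reads are the whole leukocyte sum of B1. Identical runs of 66 bases (HLA-C and RPL3P2 at the shared positions) and 98 bases (HLA-DRB1) surround the ends of 3 of them, so reads could be split between gene copies and those positions are uncertain. The other junction, chr6:31237743-31322442, had a run of 5 and both ends at annotated exon ends, but no annotated transcript held both ends. HLA genes and RPL3P2 as a list held 12 members, 0 of them in circBase, with 46 (B1) and 136 (B2) reads, against 1 (A1) and 0 (A2).

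Further members outside circBase with many reads were each found in 1 library and none passed the test. Another HLA-C junction, chr6:31239543-31324631, had 14 reads in B1. RP11-49L2.1 had 13 reads, TANGO6 and BC043223 had 11 each, and PLCG1 (phospholipase C gamma 1) and LRRC14 had 10 each, all in B1. AG and GT stood on the opposite strand in RP11-49L2.1 and BC043223, so those hosts are uncertain. The PLCG1 junction of 76465 bases had both ends at annotated exon ends and no identical base around them, but no annotated transcript held both ends. The NES junction, inside 1 coding exon of the filament gene nestin, had 10 reads in A2 and 0 elsewhere (adjusted p = 0.563). Its AG and GT stood on the opposite strand, so this host is uncertain as well.

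Reads in both groups were found in 5 members, all outside circBase. Beside the HLA-C junction, LINC00622 had 6 (B1) and 0 (B2) reads, against 0 (A1) and 5 (A2), a ratio per junction read of 0.84 (exact 95% interval 0.214 to 3.48, adjusted p = 0.778). XLOC_005754 gave 2 of them, chr6:58777435-58779133 with 1 and 0 against 3 and 2 reads, and chr6:58776212-58779777 with 0 and 2 against 0 and 2 reads. LOC101928804 had 0 and 1 against 3 and 0. AG and GT stood on the opposite strand in LOC101928804 and in the XLOC_005754 junction chr6:58776212-58779777. The runs of identical bases were 54 in LINC00622, 12 and 4 in XLOC_005754, and 28 in LOC101928804. All 9 members of XLOC_005754 together had 1 (B1) and 2 (B2) reads, whereas A1 and A2 had 15 and 12. HRNR had 0 and 0 reads in irradiated libraries, against 11 and 3 in control libraries, MUC17 had 2 and 3 against 5 and 2, and NXF2 had 0 and 0 against 0 and 8.

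By host list, zinc finger genes gave 24 members from 21 hosts, 10 of them in circBase, with 97 (B1) and 14 (B2) reads, against 8 (A1) and 8 (A2). Of 8 tested, 2 were higher (ZNF609 and ZNF124) and 0 lower. Their median log2 fold change was 5.28 beside 5.0 over all tested. ZNF154 hsa_circ_0109979 had 9 reads in B1 and 0 elsewhere. Chromatin regulators gave 9 members with 37 and 2 reads against 0 and 4, and 0 of 4 tested were called. Among them, beside MORC3, ARID1B hsa_circ_0131162, of the BAF remodelling complex, had 6 reads in B1, and CHD9 hsa_circ_0105527, a chromodomain helicase, and ASH1L hsa_circ_0008161, a histone methyltransferase, had 5 each in B1 and 0 elsewhere. Hosts of widely found circles gave 8 members with 70 and 5 reads against 3 and 0, and 2 of 3 tested were higher (MED13L and ZNF609). RBM23 hsa_circ_0101473 had 4 reads in B1 and was not tested.

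The remaining lists were small. Mediator gave 3 members, all of MED13L, with 42 and 3 reads against 0 and 0, and 1 of 1 tested was higher. Its second circle, hsa_circ_0000442, shared the acceptor of hsa_circ_0000443, ended 100 bases further downstream at another exon end, and had 1 read, in B2. Collagens and matrix genes gave 7 members with 13 and 7 reads against 0 and 9, and 0 of 2 tested were called: SPARC, a matrix glycoprotein, had 5 reads in B1 and LAMA1, a laminin chain, 6 reads in A2. AG and GT stood on the opposite strand in SPARC and LAMA1, so these hosts are uncertain. COL4A1, a basement membrane collagen, had 2 members with 4 reads each in B1. Ribosomal protein genes gave 1 member, at the pseudogene RPL5P5 (5 reads in B2, AG and GT on the opposite strand), and 0 of 1 tested was called. Set against the backgrounds of 3.53% and 0.204%, these counts are too small to call anything particular to a list.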

How the data were processed

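Exosomal RNA of irradiated and control pancreatic cancer cells was sequenced in 4 libraries. The submitters' processing notes name CASAVA 1.8. The authors used cutadapt 1.9.3 to remove poor reads, STAR 2.5.1b for alignment (hg19) and DCC for circRNA detection, and the libraries were made with a stranded TruSeq kit. They deposited whole-number counts of back-splice junction reads, not normalized. The deposited length column, another quantity, gives bases and not reads. Log2 CPM columns were not used, nor were 4 columns of per-library values whose names match no sample (A3 and B3; the library labelled B2 may be another column, as its number of circRNAs is not the one listed in a supplement), and 1 emptied line was skipped.

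Members and lists were chosen with earlier results of these data known. Rows with a summed count of 5 or more entered the test after TMM scaling, with edgeR 4.0.16 (R 4.3.3; quasi-likelihood F test, Benjamini-Hochberg adjustment over all tested), and members were counted afterwards. The script was tested on simulated counts that varied less between libraries than the real ones, which checks the code and not the calls. Depth was 5756 to 15150 junction reads per library, so members with few reads are imprecise. Shares carry Wilson intervals, and shares and features were compared with exact permutation tests (scipy 1.17.1). Exon ends, AG and GT letters and identical bases were read from GRCh37 and GENCODE v44lift37. Named members were those called, the 12 with most reads in and outside circBase, those with reads in both groups, up to 4 per host list, and up to 6 hosts per set with most members. Alternatives were RLE or no factors, mapped reads as library sizes (copied from that supplement, so open to the same doubt for B2), other minimums, other edgeR tests, DESeq2 1.42.0, a replicate block and leaving out each library. A host list with 1 member is not reported here.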

Additional observations from a re-analysis of the deposited data

How the results depend on the processing

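Among 172 members tested, 9 were higher and 1 passed the adjusted threshold. Members higher (and with adjusted p under 0.05) numbered 2 (0) with RLE factors, 1 (1) with no factors, 2 (0) with mapped reads as library sizes (taken from a supplement, and possibly of another library for B2), 5 (1) with no minimum, 11 (9) with at least 10 reads, 13 (0) with the newer form of glmQLFit, 17 (0) with the likelihood ratio test and 0 (0) with DESeq2, and 0 were lower under each. Leaving out 1 library gave 1 to 33 higher, 0 to 18 with adjusted p under 0.05 and 0 lower: 2 (0) when A1, 1 (0) when A2, 13 (13) when B1 and 33 (18) when B2 was the one left out. The lone library of a group was then assumed to vary like the other group. The cause of these changes was not tested. The HLA-C junction with 85 reads was not called with at least 10 reads (edgeR, log2 fold change 8.59, unadjusted p = 0.0502), DESeq2 (8.04, unadjusted p = 0.091) or the replicate block (edgeR, 4.98, unadjusted p = 0.665). The deviations of same-numbered libraries had r = 0.0568 over 1957 circRNAs. Because 1627 of these had reads in 1 library alone, this r cannot tell whether the numbers mark pairs. Numbers were not taken as pairs, and the replicate block gave 8 higher and 0 with adjusted p under 0.05. For shares, the mean difference between same-numbered libraries must equal the difference of group means, 2.86 and 0.658 percentage points. It is therefore no check of the shares.

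The share difference of circBase members lay between 1.53 and 4.18 percentage points, and that of other members between -0.739 and 2.05, when 1 library was left out. With only reads of the same circBase status as the total, an alternative chosen after seeing the data, they were 5.47 and 8.17. Both ends were annotated in 12.8% of members with at least 5 reads (8.62% outside circBase), and 20 or more identical bases were found in 6.16%.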
